A study of Saccharomyces cerevisiae with 26 samples.

Results

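Budding yeast can live on allantoin and urea when better nitrogen sources are lacking, and 8 genes of that system were followed here over every condition of a sporulation study on microarrays. They are the permease genes DAL4, DAL5 and DUR3, the enzyme genes DAL1, DAL2, DAL3 and DAL7, and the regulator gene DAL80. They were picked by gene symbol in the probe annotation, with no measured value in the rule. Earlier results of these data were known when the genes were chosen. They are 8 of the 5656 genes with a probe set of their own among the 9335 probe sets of the array. Each passed the filter on low signals that left 7876 probe sets, of 5464 genes, for testing.

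In yeast, allantoin enters through Dal4 and allantoate through Dal5, and allantoinase, allantoicase and ureidoglycolate lyase cut them to urea and glyoxylate. Urea taken up by Dur3 or made inside the cell is split to ammonia by the enzyme of DUR1,2. These genes are a textbook case of nitrogen catabolite repression: the GATA activators Gln3 and Gat1 switch them on when good nitrogen sources run out, Ure2 holds Gln3 back in rich medium, and the GATA repressors Dal80 and Gzf3 oppose the activators. Dal81 and Dal82 add a response to the pathway's own intermediates. Sporulation is likewise a starvation response, entered when nitrogen is missing and only acetate is left as carbon.

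The study compared cells in sporulation with and without benomyl, a drug that depolymerizes microtubules, and with and without a shift to 10 °C, on 26 arrays, 2 for each of 13 groups. In a first set, cells came from glucose medium (YPD) or acetate medium (YPA), or had spent 4 h in sporulation. Others were filtered after 4 h of sporulation and resuspended with benomyl (from a 30 mg/ml stock in dimethyl sulfoxide, DMSO, given as 0.4%) for 1 h or 4 h, with 0.4% DMSO alone for 1 h or 4 h, or with no addition for 1 h. A second set held cells moved to pre-chilled medium with DMSO at 10 °C for 1 h or 4 h, filtered cells with no stated DMSO and no stated temperature for 1 h or 4 h, and cells after 4 h of sporulation. All sporulating groups had been grown through YPD and YPA at 30 °C, and no strain or genotype was given for any group. The labels do not say that the 2 arrays of a group came from separate cultures, so p-values measure the spread between arrays, which may be technical, and 2 arrays limit the precision of every value.

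Levels are log2 signals of each gene's own probe set after quantile normalization, and 1 unit is a 2-fold difference in signal. Probe sets differ in brightness, so levels were not compared between genes. The words rose and fell are used of a gene only where limma's adjusted p, corrected over all 7876 probe sets, was under 0.05. Differences are log2 fold changes ± standard error with n = 2 arrays in each group. An exact permutation test of 2 arrays against 2 cannot give a p below 0.333, so the shared model is the only test here. In bulk RNA, fewer cells of a type and less RNA per cell cannot be told apart.

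Genes that mark the conditions moved with the labels. HOP1, of the meiotic chromosome axis, and DMC1, the meiotic recombinase, were higher after 4 h of sporulation than in YPA by 4.87 ± 0.17 and 4.73 ± 0.21. FLR1, a drug efflux pump induced by benomyl, was higher with benomyl at 1 h by 4.92 ± 0.36 (limma adjusted p = 2.6e-09). Of 9 haploid mating markers, 4 had a mean above the median of all values, 6.81, in at least 1 group (MFA1, MFA2, MF(ALPHA)1 and STE3), the MFA1 probes being able to match near-identical copies. The benomyl 1 h arrays differed most between replicates (SD of the difference over probe sets 0.622, against 0.180 to 0.498 in the other groups). In the first set, 7 groups had replicate 1 scanned on day 1 and replicate 2 on the later day 2. The YPD arrays were both from day 3, so YPD and its scan day cannot be told apart, and no scan day was at hand for the second set.

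Across the 13 groups of both sets, the cells held at 10 °C for 4 h had the highest mean level for 7 of the 8 genes. DUR3 was the exception, with its highest mean in DMSO at 1 h. For DAL3 the 10 °C 4 h arrays (mean 8.33) overlapped those of the second set's filtered cells at 1 h (mean 8.28). Between groups of different sets, condition and set cannot be told apart in these ranks. The lowest mean lay in YPD for DAL1 and DAL4, in YPA for DAL5, DAL80 and DUR3, in benomyl at 1 h for DAL2 and DAL3, and in DMSO at 4 h for DAL7. From the lowest to the highest group mean, DAL4 spanned 35.5-fold in signal, DAL1 13.3-fold, DAL2 9.28-fold, DAL5 8.87-fold, DAL3 4.14-fold and DUR3 2.68-fold. For DAL7 (10.5-fold) and DAL80 (7.00-fold) the lowest group means, 5.41 and 3.94, lay under log2 5.44, the 25th percentile of all values, where signals are dim, so these spans are not ranked with the others. Of the 96 pairs of groups next to each other in a gene's order, 60 had overlapping arrays, so most neighbouring ranks are not separated.

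**Figure D1:**
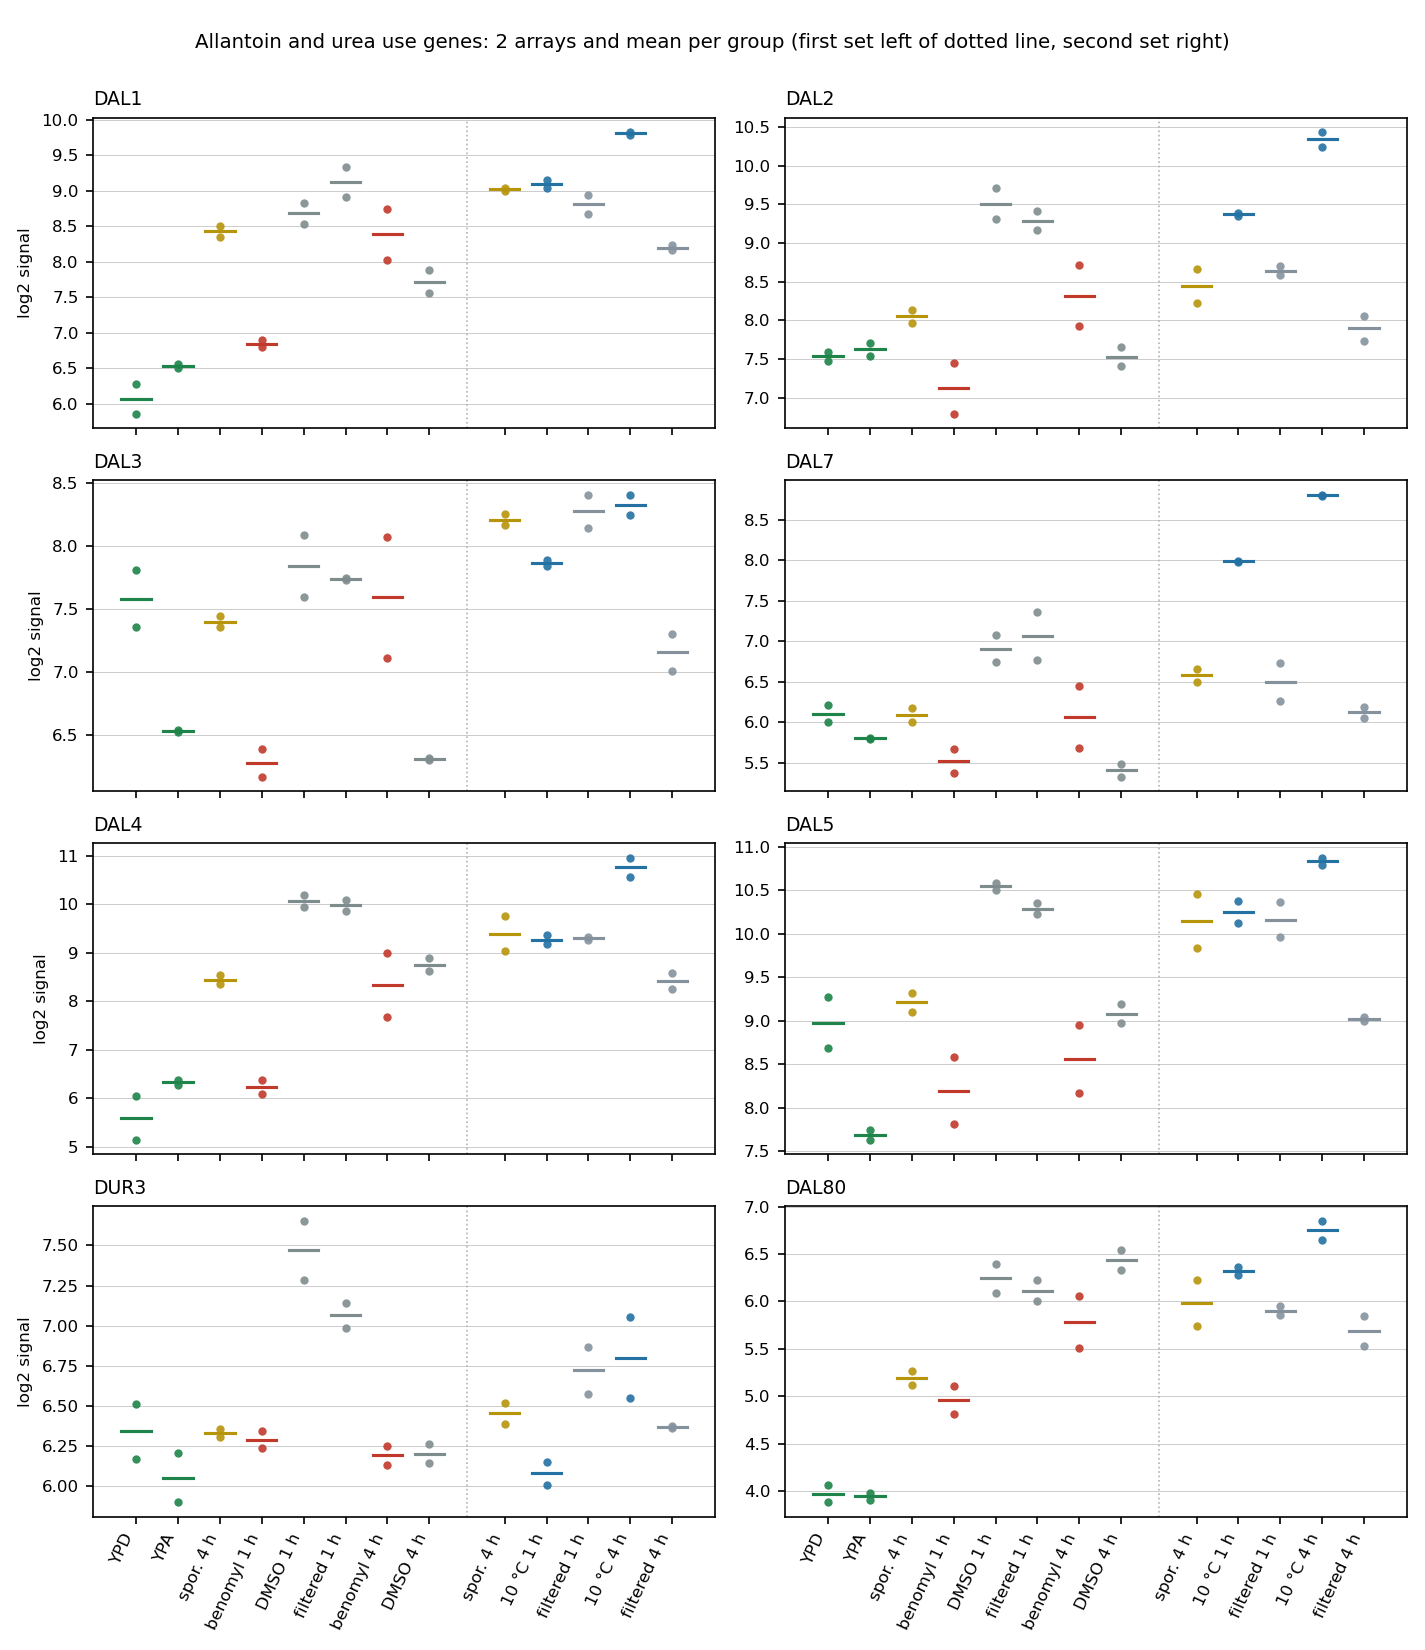
Log2 signal (vertical axes, own scale for each gene) of the 8 genes in each of 13 groups. Points are the 2 arrays, bars the group mean, red benomyl, blue 10 °C, grey their controls, yellow sporulation at 4 h and green growth media. For DAL4 the benomyl 1 h arrays lie at 6.10 and 6.37 and the DMSO 1 h arrays at 10.19 and 9.93, and the 10 °C 4 h group has the highest mean in 7 of the 8 panels.

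DAL1 was highest at 10 °C at 4 h (9.81 ± 0.03, SD, n = 2), followed by a band of sporulation and 1 h groups between 8.68 and 9.12. Its last 3 places were benomyl at 1 h (6.85 ± 0.06), YPA (6.54 ± 0.04) and YPD (6.08 ± 0.30), with no overlap between neighbours among these 3. DAL4 had the same top group (10.76 ± 0.29) and the same last 3 groups, at 6.33 ± 0.06 in YPA, 6.23 ± 0.19 in benomyl at 1 h and 5.61 ± 0.64 in YPD, where YPA and benomyl overlapped.

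DAL2 was lowest in benomyl at 1 h (7.13 ± 0.47), and its arrays there overlapped those of the next group, DMSO at 4 h (7.53 ± 0.17). DAL5 differed from DAL1 and DAL4 in glucose: its YPD level (8.98 ± 0.42) overlapped both the filtered 4 h (9.02 ± 0.03) and the benomyl 4 h (8.56 ± 0.56) levels. DAL3 was also high in YPD (7.58 ± 0.32), where its arrays overlapped those of benomyl at 4 h (7.59 ± 0.68). DAL7 was set apart by the cold: its highest groups were 10 °C at 4 h (8.81 ± 0.01) and 10 °C at 1 h (7.99 ± 0.01), neither overlapping its neighbour.

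DAL80 had its lowest levels in YPA (3.94 ± 0.05) and YPD (3.97 ± 0.13). In these groups, in benomyl at 1 h and in sporulation at 4 h of the first set its mean was under log2 5.44. DUR3 moved least, and all groups but DMSO at 1 h (7.47 ± 0.26), filtered at 1 h in both sets (7.06 ± 0.11 and 6.72 ± 0.21) and 10 °C at 4 h (6.80 ± 0.36) lay between 6.05 and 6.45.

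At 1 h after resuspension, all 8 genes fell with benomyl, with a median of -1.70, while 26.8% of all probe sets tested fell and 25.6% rose with a median of 0.01. The arrays of the groups did not overlap for any of the 8, as for 34.4% of all probe sets in that direction. Each of the 8 calls was made again with any 1 of the 4 arrays left out.

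Among the permeases, DAL4, the allantoin permease, had 6.10 and 6.37 in benomyl and 10.19 and 9.93 in DMSO. Its fall of -3.83 ± 0.33, or 14.2-fold lower, was the widest of the 8 (limma adjusted p = 2.31e-08). The benomyl arrays lie next to its YPA level, near the bottom of its range. DAL5, the permease for allantoate, had 7.81 and 8.58 in benomyl and 10.50 and 10.58 in DMSO, a fall of -2.35 ± 0.27 (limma adjusted p = 7.56e-07). DUR3, the urea transporter, had 6.24 and 6.34 in benomyl and 7.66 and 7.28 in DMSO. Its fall of -1.18 ± 0.17 was the smallest of the 8 (limma adjusted p = 1.66e-05).

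The enzyme genes fell too. DAL1, allantoinase, which opens the ring of allantoin, had 6.89 and 6.81 in benomyl and 8.54 and 8.83 in DMSO (-1.83 ± 0.20, limma adjusted p = 5.23e-07). DAL2, allantoicase, which makes urea and ureidoglycolate from allantoate, had 7.45 and 6.80 in benomyl and 9.71 and 9.31 in DMSO (-2.38 ± 0.24, limma adjusted p = 1.43e-07). In both genes the highest benomyl array stood more than 1 unit under the lowest DMSO array. DAL3, ureidoglycolate lyase, which releases a further urea, had 6.39 and 6.17 in benomyl and 7.60 and 8.09 in DMSO, a fall of -1.56 ± 0.23. DAL7, a malate synthase that takes up the glyoxylate made by the pathway, had 5.37 and 5.68 in benomyl and 7.07 and 6.75 in DMSO, a fall of -1.39 ± 0.22.

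DAL80, which represses the other genes, fell together with them. It had 5.10 and 4.81 in benomyl and 6.09 and 6.40 in DMSO, a fall of -1.28 ± 0.19 (limma adjusted p = 2.27e-05). Within scan day 1 the median of the 8 genes was -1.67, and within scan day 2 it was -1.96, with all 8 lower on both days. Against the filtered 1 h arrays without DMSO in place of the DMSO arrays, all 8 fell as well. The share of all probe sets that fell was not counted for that comparison.

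**Figure D2:**
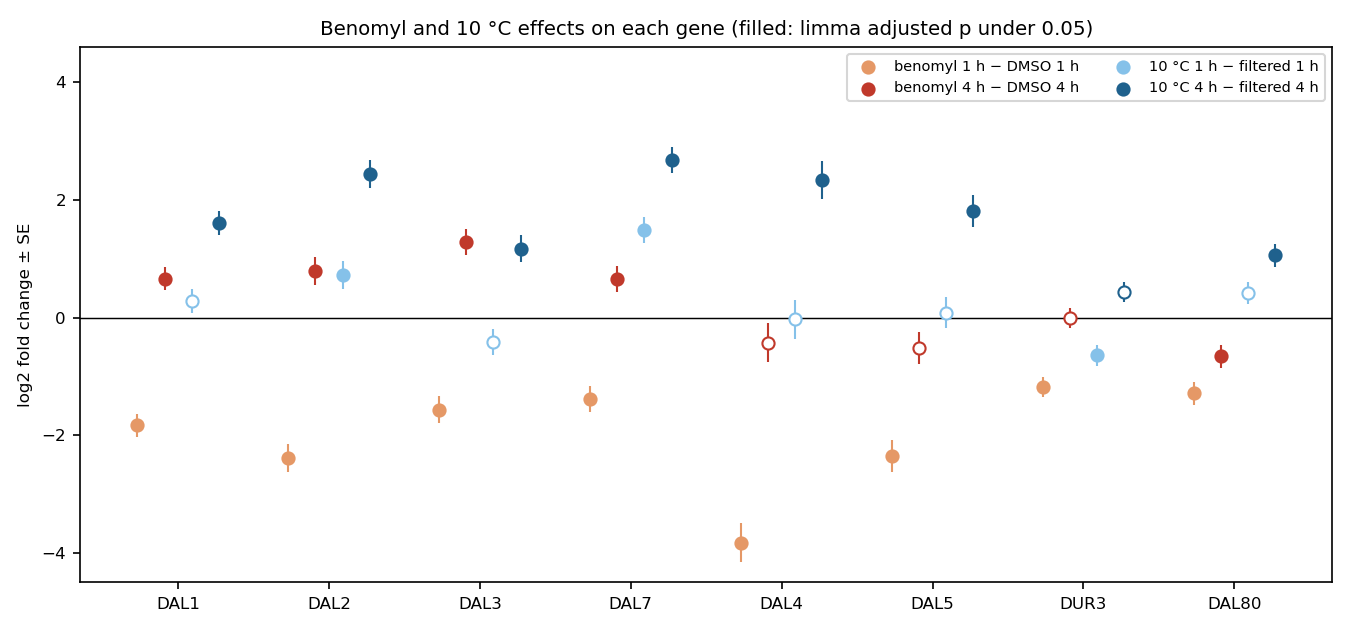
Log2 fold change (vertical axis) of each gene for benomyl over DMSO and 10 °C over the filtered controls at 1 h and 4 h, with SE bars and n = 2 arrays in each group. Filled points passed limma's adjusted p threshold of 0.05. All 8 benomyl 1 h points lie below 0, from -3.83 to -1.18, and all 8 points of 10 °C at 4 h lie above 0, from 0.43 to 2.68, with DUR3 not called.

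By 4 h the benomyl arrays no longer stood below DMSO for most of the 8 genes. DAL3, DAL2, DAL1 and DAL7 rose, DAL80 fell, and DAL4, DAL5 and DUR3 did not pass the test, with a median of 0.32 over the 8. Over all probe sets 16.6% rose and 15.9% fell, with a median of 0.08, so the share of the 8 that rose was above that of all probe sets and the share that fell was not.

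DAL3 moved most, with 8.07 and 7.12 in benomyl and 6.32 and 6.30 in DMSO (1.28 ± 0.23, limma adjusted p = 0.000255). The benomyl arrays differed from each other by 0.96, and both lay above DMSO. DAL2 had 8.71 and 7.93 in benomyl and 7.66 and 7.41 in DMSO (0.79 ± 0.24, limma adjusted p = 0.0155). DAL1 had 8.74 and 8.03 in benomyl and 7.89 and 7.55 in DMSO (0.66 ± 0.20, limma adjusted p = 0.0162). DAL7 had 6.44 and 5.68 in benomyl and 5.49 and 5.33 in DMSO (0.65 ± 0.22, limma adjusted p = 0.0306). That DMSO mean is the DAL7 level under log2 5.44, and with scan day as a block DAL7 was not called (limma adjusted p = 0.0586). Both benomyl arrays lay above both DMSO arrays in these 4 enzyme genes and in no other member. These 4 of 8 are a share near the 45.7% of all probe sets in that direction. The permeases showed no such rise. DAL4 had 8.99 and 7.67 in benomyl and 8.89 and 8.62 in DMSO, with a 95% interval of the difference from -1.12 to 0.27, and DAL5 differed by -0.52 ± 0.27 (limma adjusted p = 0.151). DUR3 had 6.25 and 6.13 in benomyl and 6.26 and 6.14 in DMSO, with an interval from -0.37 to 0.35. DAL80 had 6.06 and 5.51 in benomyl and 6.33 and 6.55 in DMSO (-0.66 ± 0.19, limma adjusted p = 0.014).

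Apart from that of DAL3, which was made in every alternative, these 4 h calls depend on single arrays. Replicate 1 of benomyl at 4 h was above replicate 2 in all 8 genes, by 0.12 in DUR3 up to 1.31 in DAL4, and FLR1 was likewise higher there (10.37 against 8.67). Without that array 1 gene rose and 3 fell, and without replicate 2 of DMSO at 4 h 1 rose and 0 fell. The median was 0.48 within scan day 1 and 0.17 within scan day 2.

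The benomyl difference at 4 h was above that at 1 h for 7 of the 8 genes in limma's test of the difference of differences, against 24.2% of all probe sets higher and 21.5% lower. It was widest in DAL4, by 3.40 ± 0.47 (limma adjusted p = 1.26e-05), and in DAL2, by 3.17 ± 0.33. DAL80 was not called (0.63 ± 0.27, limma adjusted p = 0.0689). Both differences use the DMSO courses, so the levels within each treatment are given side by side.

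With DMSO alone, 7 of the 8 genes fell between 1 h and 4 h (4 h minus 1 h), with a median of -1.39, while 25.8% of all probe sets fell and 17.8% rose with a median of -0.15. The falls ran from -1.98 ± 0.24 in DAL2 to -0.96 ± 0.20 in DAL1. DAL80 did not pass the test, at 0.20 ± 0.19 with an interval from -0.21 to 0.60. On both scan days the median was -1.35. This course and the benomyl and DMSO comparisons at 1 h share the DMSO 1 h arrays.

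With benomyl, 5 of the 8 rose between 1 h and 4 h, against 25.5% of all probe sets higher and 24% lower. They were DAL4 (2.09 ± 0.33), DAL1 (1.54 ± 0.20), DAL3 (1.32 ± 0.23), DAL2 (1.19 ± 0.24) and DAL80 (0.82 ± 0.19), while DAL5 had 0.37 ± 0.27, DAL7 0.54 ± 0.22 and DUR3 -0.10 ± 0.17. The count was 1 in a fit of these groups alone, 2 with arrays weighted by quality, and 4 to 7 with 1 array left out. In the fit of these groups alone DAL1 was the gene called, and DAL4 had a limma adjusted p = 0.0528.

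At 10 °C more of the 8 genes rose at 4 h than at 1 h. After 1 h, DAL7 and DAL2 rose, DUR3 fell and the other 5 did not pass the test, with a median of 0.19, while 11.7% of all probe sets rose and 8.35% fell. DAL7 had 8.0 and 7.98 at 10 °C and 6.27 and 6.74 in the filtered control (1.49 ± 0.22, limma adjusted p = 0.000106). DAL2 had 9.35 and 9.39 at 10 °C and 8.58 and 8.70 in the control (0.73 ± 0.24, limma adjusted p = 0.0362). DUR3 had 6.01 and 6.15 at 10 °C and 6.87 and 6.57 in the control (-0.64 ± 0.17, limma adjusted p = 0.0129). Only the DAL7 rise was called with any 1 of the 4 arrays left out. The cold medium held DMSO, and against the DMSO 1 h arrays of the first set DAL2 differed by -0.14 and 1 gene rose.

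After 4 h at 10 °C, 7 of the 8 genes rose with a median of 1.71, against 19.4% of all probe sets higher and 16.8% lower with a median of 0.03. All 8 had both cold arrays above both controls, as had 40.2% of all probe sets. The glyoxylate enzyme DAL7 rose most, with 8.81 and 8.80 at 10 °C and 6.19 and 6.06 in the control (2.68 ± 0.22, 6.43-fold, limma adjusted p = 3.39e-08). Its cold arrays are nearly equal and stand above every other array of that gene.

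DAL2 had 10.44 and 10.24 at 10 °C and 7.73 and 8.06 in the control (2.44 ± 0.24, limma adjusted p = 2.29e-07). DAL1 had 9.79 and 9.83 at 10 °C and 8.23 and 8.16 in the control (1.61 ± 0.20, limma adjusted p = 4.88e-06). DAL3 had 8.25 and 8.41 at 10 °C and 7.01 and 7.30 in the control (1.17 ± 0.23, limma adjusted p = 0.000517). All 4 enzyme genes were thus more than 2-fold higher in the cold.

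Of the permeases, DAL4 had 10.55 and 10.96 at 10 °C and 8.26 and 8.57 in the control (2.34 ± 0.33, limma adjusted p = 2.02e-05). DAL5 had 10.79 and 10.87 at 10 °C and 9.04 and 9.0 in the control (1.81 ± 0.27, limma adjusted p = 2.96e-05). DUR3 had 6.55 and 7.05 at 10 °C and 6.36 and 6.38 in the control, which did not pass the test (0.43 ± 0.17, limma adjusted p = 0.0601, interval from 0.07 to 0.79). The uptake genes for allantoin and allantoate therefore passed the test and the urea transporter did not. The repressor DAL80 had 6.65 and 6.85 at 10 °C and 5.54 and 5.84 in the control (1.06 ± 0.19, limma adjusted p = 0.000287). With the DMSO 4 h arrays of the first set as controls, DAL80 differed by 0.31 (limma adjusted p = 0.171) and DUR3 by 0.60 (limma adjusted p = 0.00602).

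The cold difference was higher at 4 h than at 1 h for 7 of the 8 genes in the test of the difference. Over all probe sets 2.83% were higher and 5% lower. In DUR3 the cold difference went from -0.64 at 1 h to 0.43 at 4 h, and in DAL3 from -0.41 to 1.17. DAL4 led (2.37 ± 0.47, limma adjusted p = 0.0027) and DAL7, which was already up at 1 h, had a difference of 1.20 ± 0.31 (limma adjusted p = 0.0225). That DAL7 call was lost in 7 of 16 alternatives, among them array weights (limma adjusted p = 0.0784) and 6 of the 8 that leave out 1 array. DAL80 was not called (0.64 ± 0.27, limma adjusted p = 0.18). In the filtered controls DAL5 (-1.14 ± 0.27) and DAL3 (-1.12 ± 0.23) fell meanwhile between 1 h and 4 h, 2 of the 8. Over all probe sets 2.63% fell and 5.47% rose there. The other 6 genes differed by -0.88 to -0.21 without passing the test. The 2 other DAL5 probe sets were not called in this course (-1.07 ± 0.37 and 0.42 ± 0.30). With array weights the count of genes that fell was 0 (limma adjusted p = 0.0802 for DAL5 and 0.1 for DAL3). With 1 array left out this count was 0 to 2. At 10 °C itself 5 genes rose between 1 h and 4 h (DAL4 1.48 ± 0.33, DAL2 0.97 ± 0.24, DAL7 0.82 ± 0.22, DUR3 0.72 ± 0.17 and DAL1 0.72 ± 0.20), against 2.43% of all probe sets higher and 2.74% lower. With any 1 array of these groups left out, at most 1 gene was called, so these 5 calls rest on all 4 arrays.

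Set against each other at 1 h, the benomyl difference was below the cold difference for 7 of the 8 genes in limma's test, against 21.8% of all probe sets lower and 20.4% higher. DAL4 (-3.80 ± 0.47) and DAL2 (-3.11 ± 0.33) differed most, and DUR3, which was lower under both treatments, was not called (-0.54 ± 0.24, limma adjusted p = 0.0851). At 4 h it was below for 6 of the 8, against 13.4% of all probe sets lower and 13.4% higher, led by DAL4 (-2.76 ± 0.47) and DAL5 (-2.33 ± 0.38). DAL3 rose under both treatments, and its difference was 0.11 ± 0.32 with an interval from -0.56 to 0.79. The 2 treatments belong to different sets with different controls, and set and treatment cannot be told apart in this comparison.

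Before filtration, few of the 8 genes differed between growth media, and more rose in sporulation. In YPA relative to YPD, DAL5 and DAL3 fell and no other member passed the test. These 2 of 8 are a share near that of all probe sets, of which 17.7% fell and 15.7% rose. Both YPD arrays were scanned on day 3 and no YPA array was, so medium and scan day cannot be told apart here. DAL5 had 7.63 and 7.74 in YPA and 8.68 and 9.27 in YPD (-1.29 ± 0.27, limma adjusted p = 0.0012). DAL3 had 6.54 and 6.53 in YPA and 7.35 and 7.81 in YPD (-1.05 ± 0.23, limma adjusted p = 0.00184).

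After 4 h of sporulation 5 of the 8 stood above YPA, against 28.5% of all probe sets higher and 29.5% lower, with a median of 1.06. DAL4 had 8.36 and 8.54 in sporulation and 6.37 and 6.29 in YPA (2.12 ± 0.33, limma adjusted p = 2.63e-05). DAL1 had 8.35 and 8.51 in sporulation and 6.51 and 6.57 in YPA (1.89 ± 0.20, limma adjusted p = 2.7e-07). DAL5 (1.53 ± 0.27), DAL80 (1.25 ± 0.19) and DAL3 (0.86 ± 0.23) rose as well, while DAL2 (0.43 ± 0.24), DAL7 (0.29 ± 0.22) and DUR3 (0.28 ± 0.17) did not pass the test. The count was 5 with any 1 array left out.

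Filtration and 1 h more brought 6 of the 8 above the 4 h sporulation level in the first set, where only 2.16% of all probe sets rose and 0.927% fell. DAL4 had 10.09 and 9.86 after filtration and 8.36 and 8.54 before it (1.53 ± 0.33, limma adjusted p = 0.0107), and DAL2 had 9.41 and 9.17 after it and 7.97 and 8.14 before it (1.24 ± 0.24, limma adjusted p = 0.00377). DAL5 (1.08 ± 0.27), DAL7 (0.97 ± 0.22), DAL80 (0.92 ± 0.19) and DUR3 (0.73 ± 0.17) were the others called. The other DAL5 probe sets were not called in this step, the second with 1.15 ± 0.37 (limma adjusted p = 0.135) and the third with 0.02 ± 0.30 (limma adjusted p = 0.994). With 1 array left out only 1 or 2 genes were called, and with scan day as a block DAL5 (limma adjusted p = 0.105) and DAL7 (limma adjusted p = 0.0767) were lost. All 8 were higher on both scan days, with medians of 0.94 and 0.86.

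In the second set the same step called 0 of the 8, with 0 at an unadjusted p under 0.05 as well and a median of -0.03. There, 0.686% of all probe sets rose and 1.69% fell. DAL4 had 9.33 and 9.27 after filtration and 9.03 and 9.76 before it, with an interval of the difference from -0.79 to 0.60. The 4 h sporulation arrays of the second set were thus already near the filtered level of DAL4. The label of the first set's 4 h sporulation group is shorter and names no sporulation medium, and the difference between the sets in this step was not tested.

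DMSO alone made no difference that passed the test: 0 of the 8 were called by limma against filtered cells at 1 h (0.356% of all probe sets rose and 0.216% fell), with 2 at an unadjusted p under 0.05 and a median of 0.12. Those 2 were DAL1 (-0.44 ± 0.20) and DUR3 (0.41 ± 0.17). Between the filtered 1 h groups of the sets, second minus first, limma called 0 of the 8, with 3 at an unadjusted p under 0.05 and a median of -0.33, while 10.8% of all probe sets rose and 11.7% fell. On the values as deposited, without quantile normalization, 5 of the 8 were lower in the second set. The share of all probe sets called on those values was not counted. The deposited array medians of these groups were 6.73 and 6.77 in the second set and 6.94 and 6.92 in the first.

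DAL5 has 3 probe sets on the array, and they did not all run alike. The values above come from the probe set with the highest mean, the brightest of them. A second, whose s_at name marks probes that can match near-identical copies, followed it: benomyl at 1 h -2.29 ± 0.37, 10 °C at 4 h 2.00 ± 0.37 and DMSO at 4 h minus 1 h -1.38 ± 0.37. The third differed. It had 5.87 and 7.24 in benomyl and 6.15 and 5.66 in DMSO at 1 h, with no call (0.65 ± 0.30, limma adjusted p = 0.0804). It had 6.20 and 6.20 in benomyl and 7.52 and 7.85 in DMSO at 4 h, a fall of -1.49 ± 0.30 (limma adjusted p = 0.000897). At 4 h in DMSO it was higher than at 1 h (1.78 ± 0.30), where the brightest was lower (-1.46 ± 0.27). At 10 °C at 4 h the third had no call (-0.05 ± 0.30, limma adjusted p = 0.921), where the brightest rose (1.81 ± 0.27).

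**Figure D3:**
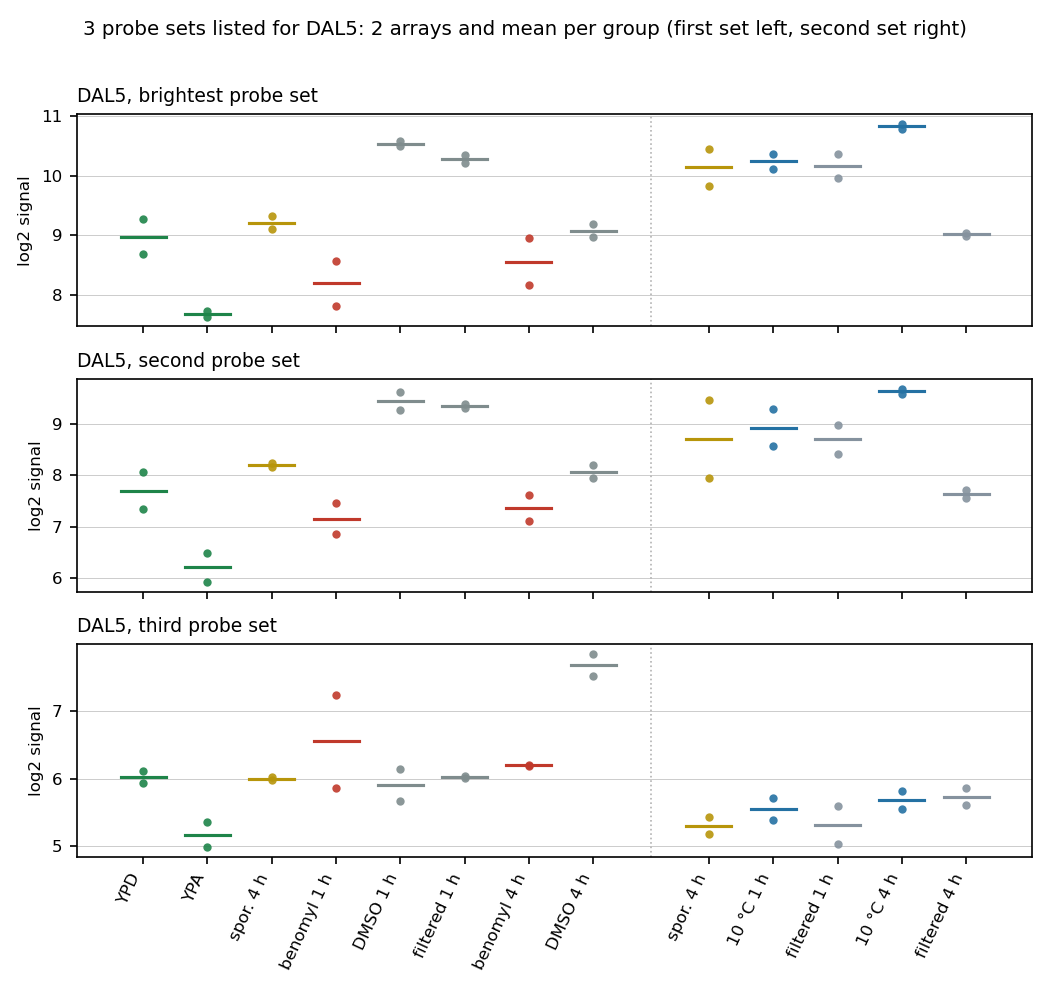
Log2 signal (vertical axes, own scale for each panel) of the 3 probe sets listed for DAL5 in the 13 groups. Points are the 2 arrays, bars the mean, red benomyl, blue 10 °C, grey their controls, yellow sporulation at 4 h and green growth media. The upper 2 panels run alike, and the third has its highest arrays, 7.52 and 7.85, in DMSO at 4 h.

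Of the 8 genes, 5 sit side by side on chromosome IX, as the R64 name table orders them: DAL1, DAL4, DAL2, DCG1, DAL7 and DAL3 form the DAL cluster of 6 genes. DAL5 lies on chromosome X, DAL80 on XI and DUR3 on VIII. DCG1, the cluster gene outside the 8, has no settled enzymatic role and was described beside them. It had 6.46 and 8.02 in benomyl and 6.75 and 6.54 in DMSO at 1 h, so its benomyl arrays stood on both sides of DMSO (0.60 ± 0.31, limma adjusted p = 0.112). All 5 members around it fell in that comparison. At 10 °C at 4 h DCG1 had 7.45 and 7.57, against 5.81 and 5.64 in the control, a rise of 1.79 ± 0.31 (limma adjusted p = 0.000164). All 6 cluster genes rose in the cold at 4 h.

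The 4 nearest genes outside the cluster were looked up after the members' values were seen. At 1 h in benomyl YVH1 (-0.75 ± 0.21), MGA2 (-0.91 ± 0.28) and LYS1 (-1.12 ± 0.22) fell and MND2 (0.56 ± 0.19) rose. At 10 °C at 4 h YVH1 rose (0.82 ± 0.21), while MND2 (-0.26 ± 0.19), MGA2 (-0.41 ± 0.28) and LYS1 (0.42 ± 0.22) did not pass the test. In benomyl at 1 h the 5 members of the cluster had log2 fold changes from -3.83 to -1.39 and the 3 flanking genes that fell from -1.12 to -0.75.

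**Figure D4:**
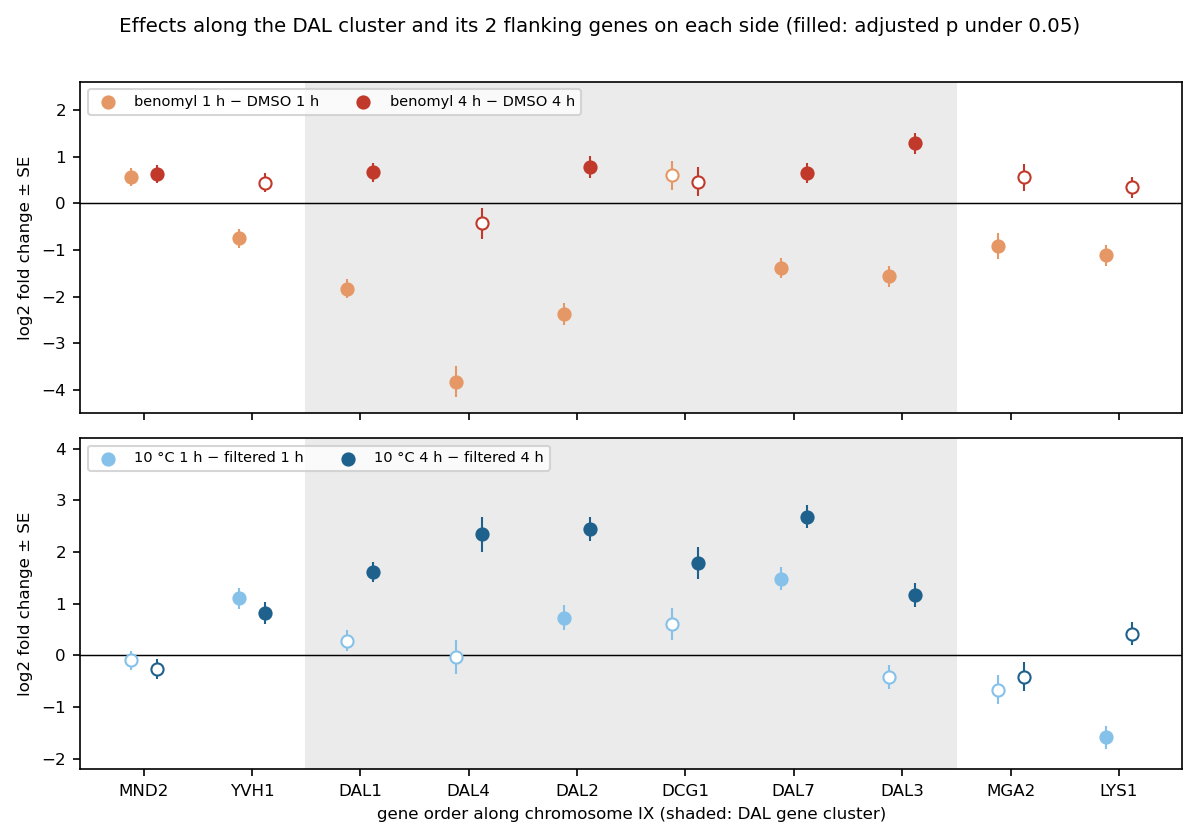
Log2 fold change ± SE (vertical axes, n = 2 arrays in each group) of the 6 DAL cluster genes (shaded) and 2 genes on each side, in their order along chromosome IX. Filled points passed limma's adjusted p threshold of 0.05. In benomyl at 1 h 5 cluster genes lie between -3.83 and -1.39 with DCG1 at 0.60, and at 10 °C at 4 h all 6 lie between 1.17 and 2.68.

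The genes of the known regulators were followed beside the 8. Of 6 regulator genes, 3 fell in benomyl at 1 h, where 26.8% of all probe sets fell. They were GZF3 (-1.56 ± 0.19), which encodes a GATA repressor like DAL80, and the activators GAT1 (-1.34 ± 0.25) and GLN3 (-0.93 ± 0.14). GAT1 had 9.05 and 7.99 in benomyl and 9.80 and 9.92 in DMSO, so its benomyl arrays were far apart and both lay lower. DAL81 (0.08 ± 0.14) and DAL82 (0.08 ± 0.12), which carry the inducer response, and URE2 (0.19 ± 0.19), which restrains Gln3, did not pass the test. At 4 h in benomyl GAT1 (1.18 ± 0.25), GZF3 (0.53 ± 0.19) and DAL82 (0.48 ± 0.12) rose.

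In the cold GLN3 fell at 1 h (-0.52 ± 0.14), and GZF3 (0.89 ± 0.19), DAL81 (0.59 ± 0.14) and DAL82 (0.46 ± 0.12) rose at 4 h. GAT1 at 4 h had 10.17 and 10.13 at 10 °C and 9.60 and 9.58 in the control without passing the test (0.56 ± 0.25, limma adjusted p = 0.0874). After 4 h of sporulation 5 of the 6 were above YPA, led by GAT1 (1.71 ± 0.25), and URE2 was below it (-0.69 ± 0.19). Over all probe sets 28.5% rose and 29.5% fell in that comparison. In YPA relative to YPD 4 of the 6 fell, DAL82 (-0.76 ± 0.12) and GZF3 (-0.78 ± 0.19) among them, beside 17.7% of all probe sets.

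Other genes of nitrogen use changed too. Of 20 other measured genes, under nitrogen catabolite repression or for the use of nitrogen sources, 14 fell and 3 rose in benomyl at 1 h. Over all probe sets 26.8% fell and 25.6% rose there. The median of the 20 was -1.56, beside -1.70 for the 8 genes. The largest fall was that of MEP2, the ammonium permease, with 6.38 and 6.38 in benomyl and 10.87 and 10.95 in DMSO (-4.53 ± 0.27, limma adjusted p = 1.98e-10). The largest rise was that of OPT2, an oligopeptide transporter (1.75 ± 0.22). At 4 h in benomyl 9 of the 20 rose and 3 fell with a median of 0.33. Over all probe sets 16.6% rose and 15.9% fell. The calls among the 20 ran from MEP3, a further ammonium permease (1.56 ± 0.29), to GDH2, the catabolic glutamate dehydrogenase (-1.12 ± 0.17).

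At 10 °C 3 of the 20 rose at 1 h, led by the proline permease gene PUT4 (1.48 ± 0.34), with a median of 0.07. Over all probe sets 11.7% rose and 8.35% fell at 1 h. At 4 h 10 of the 20 rose and 1 fell with a median of 0.54, beside 1.71 for the 8 genes. Over all probe sets 19.4% rose and 16.8% fell at 4 h. PUT4 had 11.93 and 11.90 at 10 °C and 8.67 and 8.69 in the control (3.23 ± 0.34, limma adjusted p = 5.55e-07). The gene that fell was AGP1, a broad amino acid permease, with 8.0 and 8.28 at 10 °C and 11.52 and 11.42 in the control (-3.33 ± 0.16, limma adjusted p = 1.56e-10). These lists differ in size and make-up, and the difference between them was not tested.

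**Figure D5:**
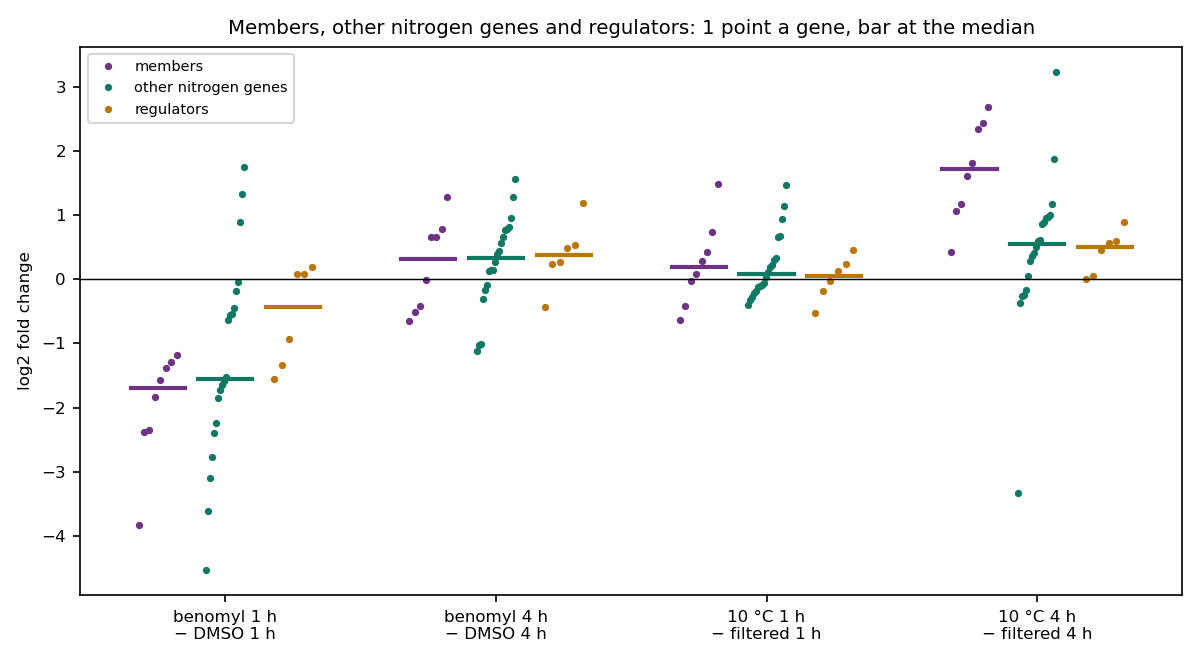
Log2 fold change (vertical axis) of the 8 genes, 20 other nitrogen genes and 6 regulators in the benomyl and 10 °C comparisons, 1 point a gene with a bar at the median. In benomyl at 1 h the medians of the 8 genes and of the other nitrogen genes are -1.70 and -1.56, and at 10 °C at 4 h they are 1.71 and 0.54.

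Genes related to the members by protein sequence showed a mixed picture. Of 11 relatives, 5 fell and 2 rose in benomyl at 1 h, and 6 rose at 10 °C at 4 h. Over all probe sets 26.8% fell and 25.6% rose in benomyl at 1 h, and 19.4% rose at 10 °C at 4 h. MLS1, the malate synthase of the glyoxylate cycle and relative of DAL7, had 11.65 and 8.91 in benomyl and 12.64 and 12.53 in DMSO at 1 h (-2.30 ± 0.47, limma adjusted p = 0.000483). Its benomyl arrays stood far apart. At 10 °C at 4 h MLS1 had 12.30 and 12.23, against 12.14 and 12.16 in the control (0.12 ± 0.47, limma adjusted p = 0.872), beside 2.68 ± 0.22 for DAL7. FUR4, the uracil permease and relative of DAL4, fell in benomyl at 1 h (-0.91 ± 0.28) and rose at 10 °C at 1 h (0.80 ± 0.28) and 4 h (1.07 ± 0.28). FUI1, the uridine permease, also a relative of DAL4, fell in benomyl at 4 h (-1.54 ± 0.22) and did not pass the test at 10 °C at 4 h (-0.56 ± 0.22).

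Meiotic genes changed in the same comparisons. In benomyl at 1 h DMC1 (-1.57 ± 0.21), HOP1 (-1.01 ± 0.17) and the meiotic inducer IME1 (-1.68 ± 0.29) fell as well, beside 26.8% of all probe sets. So did NDT80, the switch to the meiotic divisions (-1.29 ± 0.31), and SPS1, a late sporulation kinase (-1.01 ± 0.27). IME1 had 12.14 and 10.57 in benomyl, far apart, and 13.10 and 12.97 in DMSO. SPS1 had 6.11 and 6.55 in benomyl and 8.02 and 6.66 in DMSO, so its arrays nearly touched. At 10 °C at 4 h SPS1 had 5.86 and 5.91, against 9.70 and 10.00 in the control (-3.96 ± 0.27), and NDT80 differed by -2.06 ± 0.31. In DMSO SPS1 was higher at 4 h than at 1 h (3.84 ± 0.27), where 7 of the 8 genes were lower. Of the 8 haploid mating markers tested, 1 rose and 1 fell in benomyl at 1 h, MF(ALPHA)2 (1.01 ± 0.19) and STE3 (-0.63 ± 0.21). Over all probe sets 25.6% rose and 26.8% fell there. At 10 °C at 4 h MFA2 rose (2.15 ± 0.14) and BAR1 fell (-0.39 ± 0.14). The part of these genes' states in the members' changes was not tested.

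Among themselves, the members ran in parallel to differing degrees over the 13 group means, which share the same arrays. The correlation of each gene with the mean of the other 7 was 0.93 for DAL4, 0.93 for DAL1, 0.92 for DAL2 and 0.92 for DAL5. It was lower for DAL80 (0.80), DAL7 (0.79), DAL3 (0.74) and DUR3 (0.59). Of the 28 pairs, DAL1 and DAL4 were most alike (0.96) and DAL7 and DUR3 least (0.40), with a median of 0.73.

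Of 5456 other genes, the 10 most like the members' mean profile over the 13 group means were TEA1 (0.92), the threonine synthase gene THR4 (0.92), MEP2 (0.90), the lysyl-tRNA synthetase gene KRS1 (0.90), ARB1 (0.90), the aspartate kinase gene HOM3 (0.89), CCR4, of the deadenylase (0.89), ISN1 (0.89), HKR1 (0.89) and the glucose sensor gene RGT2 (0.89). HKR1 is uncertain, since its probe set can match near-identical copies. The amino acid permease gene CAN1 ranked 24 (0.87), GAT1 27 (0.86) and GZF3 135 (0.77), while GDH2 ran opposite (-0.84). These values are descriptions over 13 points that share arrays, and genes with similar values are not ordered by them.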

How the data were processed

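RNA of 26 Saccharomyces cerevisiae samples was measured on Affymetrix YG_S98 arrays. The authors deposited a table of processed log2 signals for 9335 probe sets. The method behind it is not given in the sources used here, and the base is inferred from the values (2.09 to 15.1, array medians 6.64 to 7.00). For 16 arrays the deposited instrument settings, which are of an "other" unit and hold no expression values, gave the scan day, per the file headers.

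Groups came from the sample titles. Values were quantile normalized, and 60 control probe sets and 1399 with no group mean above the 25th percentile of all values (log2 5.44) were left out, which kept 7876. Each comparison, 18 in all, was a contrast in a limma 3.58.1 model (R 4.3.3) with a mean per group over all 26 arrays and an intensity trend in the variance (13 residual and a median of 5.24 prior degrees of freedom), with calls where the p adjusted by Benjamini-Hochberg was under 0.05. The fit was checked on simulated data in which a probe set had the same spread in every group. The benomyl 1 h arrays differed more between replicates, and the check does not cover their wider spread. Intervals are 95%. Single differences and differences of differences were tested in the same model.

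Of the probe sets 6504 had 1 gene listed, 328 several and 2443 none. The R64 name table changed no symbol and gave gene order only. All 8 members were named whatever their values, as were all regulators, DCG1 and 4 relatives, and of the other nitrogen genes the largest called rise and fall of each benomyl and cold comparison. Where a gene had several probe sets, the one with the highest mean stands for it. DUR1,2 and ASP3-1 were not analysed here. The members and lists were chosen with earlier results of these data known. No promoter, probe or protein sequence was used here.

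Alternatives were values as deposited, median centring, no or a stricter filter, no variance trend, array weights, only the groups of a contrast, a block for replicate number or for scan day, other controls, the other DAL5 probe sets and each array left out in turn. Equal replicate numbers were not taken as pairs, since the deviations of equally numbered arrays correlated at -0.155 to 0.309 (first set) and -0.289 to 0.391 (second set).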

Additional observations from a re-analysis of the deposited data

Results flagged for a closer look

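Differences of differences that passed limma's test mark members whose response was not the same under both treatments or at both times. The benomyl difference was below the cold difference at 1 h in DAL4 (-3.80), DAL2 (-3.11), DAL7 (-2.87), DAL5 (-2.44), DAL1 (-2.12), DAL80 (-1.70) and DAL3 (-1.15). At 4 h it was below in DAL4 (-2.76), DAL5 (-2.33), DAL7 (-2.03), DAL80 (-1.72), DAL2 (-1.65) and DAL1 (-0.95). Treatment and array set cannot be told apart in these.

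Between times, the benomyl difference was higher at 4 h than at 1 h in DAL4 (3.40), DAL2 (3.17), DAL3 (2.85), DAL1 (2.49), DAL7 (2.04), DAL5 (1.83) and DUR3 (1.17). The cold difference was higher at 4 h than at 1 h in DAL4 (2.37), DAL5 (1.73), DAL2 (1.71), DAL3 (1.59), DAL1 (1.33), DAL7 (1.20) and DUR3 (1.07). The DAL7 value was not called in 7 of 16 alternatives, array weights among them (limma adjusted p = 0.0784). DAL80 was not called in either comparison of times, and DUR3 in neither comparison of treatments. All 27 values are log2 units with 2 arrays in each of 4 groups, and the comparisons share control arrays.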

How the results depend on the processing

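Of 82 called member results, 48 were called in every alternative run and 74 kept their sign in all of them. All 8 reversals come from another probe set or control. With the third of its probe sets, DAL5 differed by 0.65 in benomyl at 1 h, -0.047 at 10 °C at 4 h, 1.78 in the DMSO course, 0.42 in the filtered course, 0.42 between the treatments at 1 h, -2.13 between the benomyl differences and -0.28 between the cold differences. With DMSO 1 h of the first set as control, DAL2 differed by -0.14 at 10 °C at 1 h. The cause was not tested.

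Counts of called members moved by over 1.5 times as follows. Array weights gave 1 higher at 10 °C at 1 h (as did the first set's DMSO control), 2 higher in the benomyl course and 0 lower in the filtered course, where either other probe set for DAL5 gave 1. A fit of the contrast's groups alone gave 1 higher in the benomyl course. Between the filtered groups of the sets, 5 were called on values as deposited, 1 with median centring and 2 with the replicate block, whose numbers do not pair the samples. Under that block DAL2 and DAL7 were gained there, DUR3 at 10 °C at 4 h, DAL7 in the benomyl course and DAL2 in the filtered course, and DAL1 in the 10 °C course was lost. Among smaller moves, array weights gained DAL5 in benomyl at 4 h (limma adjusted p = 0.0332), DUR3 at 10 °C at 4 h (0.0127) and DAL1 in filtration of the first set (0.0177), and lost DAL3 between the treatments at 1 h (0.22), DAL7 between the cold differences (0.0784) and DUR3 at 10 °C at 1 h (0.0965), the last also lost in the fit of the groups alone (0.102). That fit gained DAL3 and DAL5 in the 10 °C course, DAL2 in sporulation, DAL1 in filtration of the first set and DAL4 in the filtered course. Scan day as a block lost DAL7 in benomyl at 4 h (0.0586), and no filter lost DAL1 in the 10 °C course (0.0509). Values as deposited gained DAL2 and DUR3 in sporulation, DAL7 in the benomyl course and DUR3 between the treatments at 1 h, and the stricter filter gained DAL7 in the benomyl course.

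With 1 array left out, the counts were 8 to 8 in benomyl at 1 h, 1 to 4 higher in benomyl at 4 h, 1 to 1 at 10 °C at 1 h, 7 to 8 at 10 °C at 4 h, 1 to 2 in filtration of the first set, 4 to 7 in the benomyl course, 0 to 2 in the filtered course, 0 to 1 in the 10 °C course, 5 to 7 between the cold differences and 0 to 1 between the sets. A stricter filter, above the median of all values, left DAL80 out.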
